A study of Homo sapiens with 12 samples.

Results

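FOXO transcription factors and 8 further genes linked to growth factor withdrawal and cell cycle exit were followed through knockdown of TP63, the gene of the basal keratinocyte factor p63. The 10 genes, chosen by symbol, are FOXO1, FOXO3, IRS2, PIK3IP1, FBXO32, TXNIP, CITED2, CCNG2, YPEL3 and KLF9. All 10 were found among the 18404 genes measured through probe sets with a single gene symbol, and each is represented by 1 such probe set. Their levels in the 4 groups and earlier results of the comparisons below were known when they were put forward. The levels and differences given for them are thus a description of these arrays.

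Both cell lines, FaDU and JHU-029, are established cell lines grown from squamous carcinomas of the head and neck. FaDU shTP63 cells carried a lentiviral shRNA against TP63 and FaDU shControl cells a control vector, and JHU-029 shTP63 and JHU-029 shControl cells were made in the same way. RNA was collected 72 hours after knockdown and measured on 3 arrays per group, 12 in all. Every group is thus lentivirally treated. Cultures were kept in 1 of several media with fetal bovine serum, and the sources used here do not tell which line had which medium. Nothing in the labels says that replicates came from separate cultures, so errors measure the spread between these samples, which may be technical. TP63 mRNA is not analysed here, so these arrays give no check of the knockdown.

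FOXO proteins are forkhead transcription factors at the end of the insulin and growth factor pathway. When the pathway is active, the kinase AKT phosphorylates them and they are held in the cytoplasm. When it is quiet they enter the nucleus and switch on genes of cell cycle arrest, stress resistance, protein breakdown and insulin sensing, several of which feed back on the pathway. FOXO activity is set largely by this movement, which an mRNA measurement does not show.

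The forkhead core sequence GTAAACA, and its variant ATAAACA, were looked up on both strands in RefSeq promoter windows (build GRCh38.p14) that run from 250 bases before to 50 after a start site. Of the 10 genes, 9 had a window, 16 windows in all. No window was available for FBXO32, so its promoter was not searched. GTAAACA was found in the windows of TXNIP, YPEL3 and PIK3IP1 and ATAAACA in those of FOXO3 and KLF9, so that 5 of 9 genes held one of them. Across all 27305 genes with windows, 8.98% held one or the other, and 4.19% held GTAAACA. A gene counts here if any of its windows holds a match. The 9 genes had 16 windows and all genes 35116, so the 9 had more windows per gene and more chances of a match. Over all windows, GTAAACA was found in 3.42% and ATAAACA in 4.24%. The 3 GTAAACA stretches are shown because they are the only ones found in the windows of these genes. Whether a match goes with a difference between groups was not tested. Capitals mark the match, each sequence is read 5′ to 3′ along the gene, and a match does not show binding.
TXNIP, chr1:145996580-145996829, minus strand: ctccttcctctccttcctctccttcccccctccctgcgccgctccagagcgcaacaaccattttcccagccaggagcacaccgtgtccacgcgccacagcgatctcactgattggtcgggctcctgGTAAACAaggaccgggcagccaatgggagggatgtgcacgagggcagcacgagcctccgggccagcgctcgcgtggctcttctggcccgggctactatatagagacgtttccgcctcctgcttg
YPEL3, chr16:30096207-30096333, minus strand: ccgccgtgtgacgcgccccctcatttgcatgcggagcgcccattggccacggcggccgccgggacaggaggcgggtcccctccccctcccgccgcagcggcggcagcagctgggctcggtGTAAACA
PIK3IP1, chr22:31292459-31292523, minus strand: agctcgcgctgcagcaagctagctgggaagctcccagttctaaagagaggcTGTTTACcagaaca
In TXNIP the match begins 124 bases before the start site. In YPEL3 it occupies the first 7 transcribed bases, and in PIK3IP1 it lies on the opposite strand at transcribed bases 17 to 23. A related insulin response core, CAAAACA, was found in the IRS2 window only among these genes (6.05% of all genes). The E-box CACGTG was found in the windows of CCNG2 and CITED2 (8.77% of all genes).

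Values are log2 of the RMA intensity, so a difference of 1 is a 2-fold change. The median array value lay between 6.46 and 6.56. Differences between groups are estimates of a linear model fitted to all genes with limma, given with their standard error (SE). A gene is said to have risen or fallen where it passed an adjusted p of 0.05 over all 18404 genes. The array values average over all cells of a culture, so a larger share of high cells and more RNA per cell cannot be told apart.

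In FaDU, 5 of the 10 genes rose after TP63 knockdown and 0 fell, the 5 being YPEL3, FBXO32, CITED2, CCNG2 and TXNIP. Over all genes, 26.6% passed in FaDU, 12.4% rising and 14.2% falling. In JHU-029, FBXO32 and TXNIP rose, YPEL3 fell and 7 genes did not pass, while 3.15% of all genes passed there, 1.8% rising and 1.35% falling. Arrays of the 2 groups did not overlap for 5 of the 10 genes in FaDU, all higher with shTP63, and for 5 in JHU-029, 3 higher and 2 lower. Over all genes, arrays were apart in FaDU for 36.1% (18.1% higher and 18% lower) and in JHU-029 for 24.9% (13.3% higher and 11.7% lower). The median difference of the 10 genes was 0.29 in FaDU and -0.01 in JHU-029, beside 0.02 and 0.00 over all genes. Because the genes were chosen with these results known, nothing is read from the counts.

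**Figure D1:**
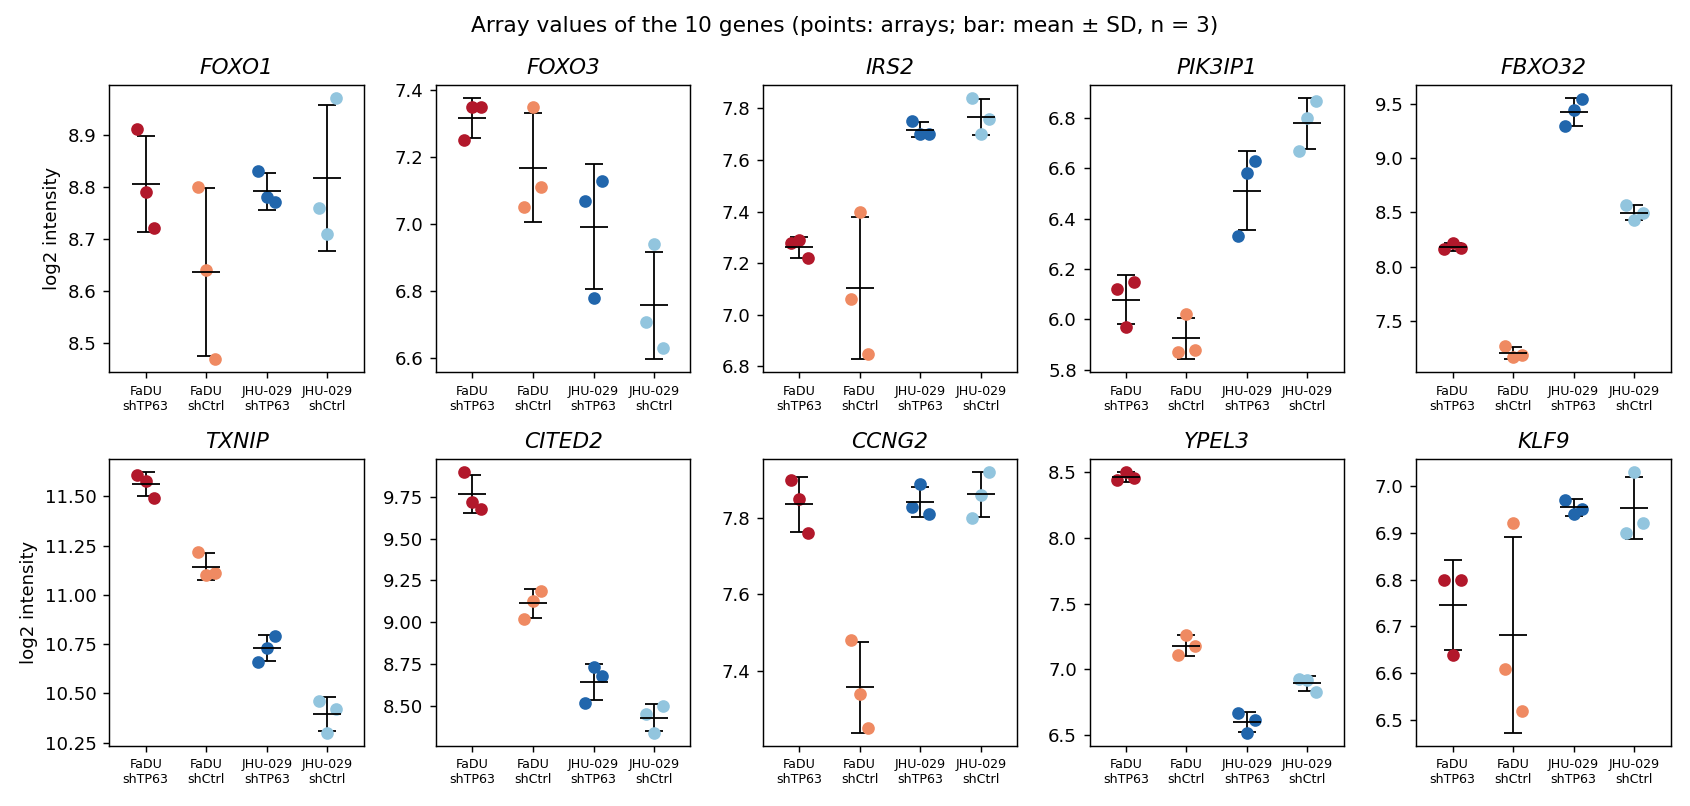
Log2 intensity (vertical axes, each with its own range) of the 10 genes on the 12 arrays. Points are arrays, and the bar and whiskers are the mean ± SD of 3 arrays in FaDU shTP63, FaDU shControl, JHU-029 shTP63 and JHU-029 shControl. YPEL3 is at 8.44 to 8.50 in FaDU shTP63 and at most 7.26 on every other array, while FBXO32 is higher with shTP63 in both lines.

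Neither FOXO1 nor FOXO3 passed in either line. FOXO1 was at 8.91, 8.79 and 8.72 in FaDU shTP63 arrays, against 8.80, 8.64 and 8.47 in FaDU shControl arrays. The JHU-029 levels were 8.83, 8.78 and 8.77 in shTP63 arrays, against 8.76, 8.71 and 8.97 in shControl arrays. The knockdown and control arrays overlapped in both lines. The difference was 0.17 in FaDU (SE 0.09, 95% interval -0.03 to 0.36) and -0.03 in JHU-029 (SE 0.09, 95% interval -0.22 to 0.17).

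FOXO3 was at 7.25, 7.35 and 7.35 in FaDU shTP63 arrays, against 7.05, 7.35 and 7.11 in FaDU shControl arrays. It was at 7.07, 6.78 and 7.13 in JHU-029 shTP63 arrays, against 6.71, 6.94 and 6.63 in JHU-029 shControl arrays. In each line 1 control array reached into the knockdown range, replicate 2 in both cases. The difference was 0.15 in FaDU (SE 0.11, 95% interval -0.09 to 0.38) and 0.24 in JHU-029 (SE 0.11, 95% interval -0.00 to 0.47). A further probe set, listed for both FOXO3 and its near-identical relative FOXO3B, was not assigned to either.

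Of the genes that act on the insulin signal ahead of AKT, neither passed in either knockdown comparison. IRS2, a docking protein of the insulin receptor and a known FOXO target, was at 7.28, 7.29 and 7.22 in FaDU shTP63 arrays, against 7.06, 7.40 and 6.85 in FaDU shControl arrays. The control arrays were more spread (SD 0.27) than the knockdown arrays (SD 0.04) and enclosed them. The FaDU difference was 0.16 (SE 0.10). Without FaDU shControl replicate 2, the highest array, it was 0.31 and passed (adjusted p = 0.00874). In JHU-029 IRS2 was at 7.75, 7.70 and 7.70 in shTP63 arrays, against 7.84, 7.70 and 7.76 in shControl arrays, a difference of -0.05 (SE 0.10).

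PIK3IP1, which binds the catalytic subunit of PI3K and restrains it, was at 6.12, 5.97 and 6.15 in FaDU shTP63 arrays, against 5.87, 6.02 and 5.88 in FaDU shControl arrays. In JHU-029 it was at 6.33, 6.58 and 6.63 in shTP63 arrays, against 6.67, 6.80 and 6.87 in shControl arrays, with no overlap. The difference was 0.15 in FaDU (SE 0.09) and -0.27 in JHU-029 (SE 0.09, 95% interval -0.46 to -0.08). The FaDU means, 6.08 with shTP63 and 5.92 with shControl, lie below the array medians, so the size of the FaDU difference is uncertain.

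FBXO32, which FOXO proteins are known to switch on, rose in both lines. It encodes atrogin-1, the substrate receptor of a ubiquitin ligase, best known from wasting muscle. FBXO32 was at 8.16, 8.22 and 8.17 in FaDU shTP63 arrays, against 7.27, 7.17 and 7.19 in FaDU shControl arrays. In JHU-029 it was at 9.29, 9.44 and 9.54 in shTP63 arrays, against 8.57, 8.43 and 8.49 in shControl arrays.

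No arrays of FBXO32 overlapped within a line. The rise was 1.96-fold in FaDU (log2 0.97, SE 0.07) and 1.90-fold in JHU-029 (log2 0.93, SE 0.07). The FaDU effect exceeded the JHU-029 effect by 0.04 (95% interval -0.17 to 0.25), which did not pass. FaDU shTP63 cells, at a mean of 8.18 ± 0.03 (SD, n = 3), stayed below JHU-029 shControl cells at 8.50 ± 0.07.

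TXNIP, an arrestin-like protein that binds thioredoxin and restrains glucose uptake, rose in both lines by a smaller amount. It was at 11.61, 11.58 and 11.49 in FaDU shTP63 arrays, against 11.22, 11.10 and 11.11 in FaDU shControl arrays. JHU-029 cells had 10.66, 10.73 and 10.79 in shTP63 arrays, against 10.46, 10.30 and 10.42 in shControl arrays. Neither line's arrays overlapped.

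The rise of TXNIP was 1.34-fold in FaDU (log2 0.42, SE 0.06) and 1.26-fold in JHU-029 (log2 0.33, SE 0.06). The JHU-029 call was lost without JHU-029 shControl replicate 2 (0.29, adjusted p = 0.0791) or 3 (0.35, adjusted p = 0.0548), or without shTP63 replicate 2 (0.33, adjusted p = 0.0651) or 3 (0.30, adjusted p = 0.0735). The difference between the lines was 0.09 (95% interval -0.11 to 0.28).

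CITED2, which binds the co-activators CBP and p300 and limits hypoxia signalling, was at 9.90, 9.72 and 9.68 in FaDU shTP63 arrays, against 9.02, 9.13 and 9.19 in FaDU shControl arrays. JHU-029 values were 8.52, 8.73 and 8.68 in shTP63 arrays, against 8.45, 8.34 and 8.50 in shControl arrays. It rose 1.57-fold in FaDU (log2 0.65, SE 0.08), and in JHU-029 the difference was 0.21 (SE 0.08, 95% interval 0.04 to 0.38), which did not pass although no arrays overlapped. The effect was larger in FaDU by 0.44 (95% interval 0.20 to 0.68), a difference that passed but was lost without JHU-029 shControl replicate 3 (0.41, adjusted p = 0.0592).

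CCNG2, an unconventional cyclin that is induced in arrested cells, was at 7.90, 7.85 and 7.76 in FaDU shTP63 arrays, against 7.48, 7.34 and 7.25 in FaDU shControl arrays. In JHU-029 the values were 7.83, 7.89 and 7.81 in shTP63 arrays, against 7.80, 7.86 and 7.92 in shControl arrays. The arrays were apart in FaDU and fully interleaved in JHU-029. It rose 1.39-fold in FaDU (log2 0.48, SE 0.07) and differed by -0.02 in JHU-029 (SE 0.07), and the difference between the lines, 0.50 (95% interval 0.29 to 0.71), passed. FaDU shTP63 cells, at 7.84 ± 0.07, lay beside JHU-029 shControl cells at 7.86 ± 0.06 (SD, n = 3 each).

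YPEL3, a small zinc-binding protein of the yippee-like family that slows growth in human cells, went in opposite directions. It was at 8.44, 8.50 and 8.45 in FaDU shTP63 arrays, against 7.11, 7.26 and 7.18 in FaDU shControl arrays. In JHU-029 it was at 6.67, 6.52 and 6.62 in shTP63 arrays, against 6.93, 6.92 and 6.83 in shControl arrays. No arrays overlapped within either line.

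YPEL3 rose 2.43-fold in FaDU (log2 1.28, SE 0.06), the largest difference of the 10 genes there. In JHU-029 it fell by 0.29 on the log2 scale (SE 0.06). The JHU-029 shTP63 mean, 6.60, lies close to the array medians, so the size of that fall is uncertain. The JHU-029 call was lost without JHU-029 shControl replicate 1 (-0.27, adjusted p = 0.0994) or 2 (-0.28, adjusted p = 0.101), or without shTP63 replicate 2 (-0.25, adjusted p = 0.112) or 3 (-0.30, adjusted p = 0.0725), and its sign held in all 12 fits that left out 1 array. The FaDU effect exceeded the JHU-029 effect by 1.57 (95% interval 1.38 to 1.76), a difference that passed.

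KLF9, a Krüppel-like repressor induced by glucocorticoids and linked to differentiation, was at 6.80, 6.64 and 6.80 in FaDU shTP63 arrays, against 6.61, 6.92 and 6.52 in FaDU shControl arrays. The JHU-029 values were 6.97, 6.94 and 6.95 in shTP63 arrays, against 6.90, 7.03 and 6.92 in shControl arrays. The arrays overlapped in both lines, with differences of 0.06 in FaDU (SE 0.09, 95% interval -0.13 to 0.26) and 0.00 in JHU-029 (SE 0.09, 95% interval -0.20 to 0.20).

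**Figure D2:**
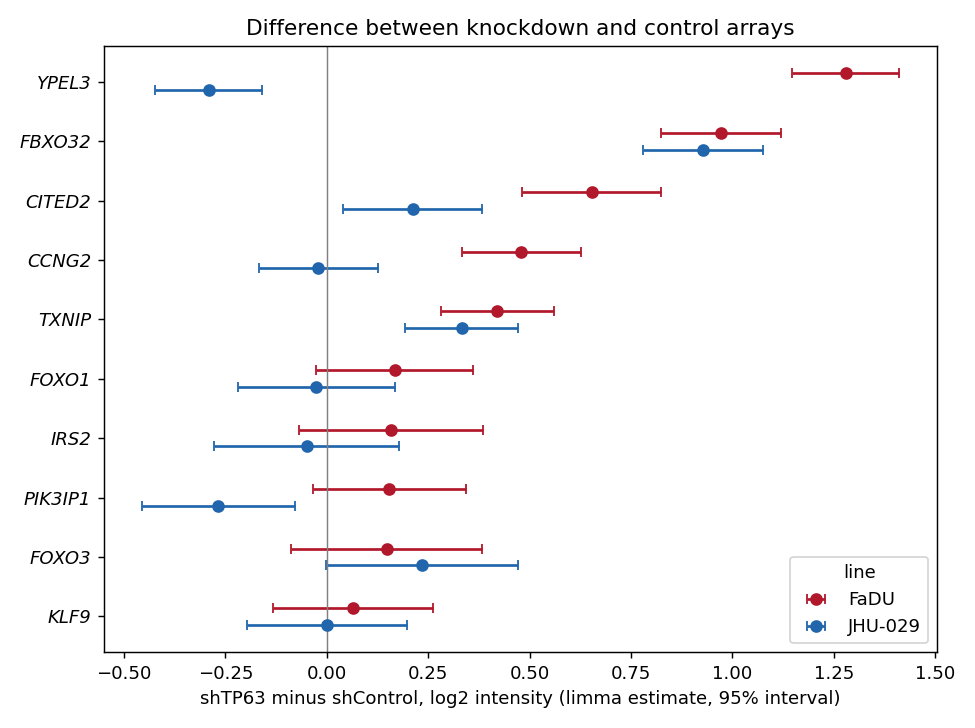
Difference between shTP63 and shControl arrays in log2 intensity (horizontal axis) for each of the 10 genes, ordered by the FaDU value. Points are limma estimates and bars their 95% intervals, in red for FaDU and in blue for JHU-029. YPEL3 lies at 1.28 in FaDU and -0.29 in JHU-029, while the FBXO32 points, at 0.97 and 0.93, lie within each other's intervals.

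Compared between the lines, 4 of the 10 genes had an effect that was more positive in FaDU and passed the test of the difference (YPEL3, CCNG2, CITED2 and PIK3IP1), beside 4.97% of all genes, and 0 had one that was more negative, beside 8.25% (13.2% in either direction). The 10 genes were chosen with these results known too. Nothing is therefore read from these counts, or from those of the control groups below. For PIK3IP1 the difference was 0.42 (95% interval 0.15 to 0.69). This call was lost in 8 fits, namely those without JHU-029 shControl replicate 2 or 3, JHU-029 shTP63 replicate 1 or 2, FaDU shControl replicate 1 or 3, or FaDU shTP63 replicate 1 or 3. In all 12 fits it lay between 0.33 and 0.48, with an adjusted p of up to 0.105.

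The lines also differed before knockdown. Under control shRNA, 4 of the 10 genes were higher in FaDU (TXNIP, CITED2, FOXO3 and YPEL3) and 5 were lower (FBXO32, PIK3IP1, IRS2, CCNG2 and KLF9), beside 33.4% and 30.4% of all genes (63.8% in all). FBXO32 averaged 7.21 ± 0.06 in FaDU shControl and 8.50 ± 0.07 in JHU-029 shControl (SD, n = 3 each), a 2.44-fold lower level in FaDU (log2 -1.29, SE 0.07). PIK3IP1 was lower in FaDU by 0.85 (SE 0.09), IRS2 by 0.66 (SE 0.10) and CCNG2 by 0.51 (SE 0.07), as differences of FaDU minus JHU-029 of -0.85, -0.66 and -0.51. TXNIP was higher in FaDU by 0.75 (SE 0.06), CITED2 by 0.68 (SE 0.08), FOXO3 by 0.41 (SE 0.11) and YPEL3 by 0.29 (SE 0.06). These 4 and the 4 largest of the 5 lower genes showed no overlap between the lines' control arrays. For FOXO3, the further probe set shared with FOXO3B ran the other way, at 10.61 in FaDU shControl and 11.26 in JHU-029 shControl.

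KLF9 was lower in FaDU by a difference of -0.27 (SE 0.09) with overlapping arrays, and that call was lost without JHU-029 shControl replicate 2 (-0.23, adjusted p = 0.0723) or without FaDU shControl replicate 1 (-0.23, adjusted p = 0.0662) or 3 (-0.19, adjusted p = 0.0897). FOXO1 did not pass (-0.18, SE 0.09), and without FaDU shControl replicate 1 it did (-0.26, adjusted p = 0.024).

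Relatives of the 10 genes were followed too, by family or, for TRIM63, by its role beside FBXO32 in muscle wasting. Of 30 measured relatives, 9 rose and 5 fell in FaDU, and 1 rose and 3 fell in JHU-029. The shares over all genes beside these counts, and beside those of each list below, are 12.4% rising and 14.2% falling in FaDU, and 1.8% and 1.35% in JHU-029. FOXO4, the remaining widely expressed FOXO factor, had a mean of 7.18 in FaDU shTP63 and 6.81 in FaDU shControl, a rise of 0.37 (SE 0.08, adjusted p = 0.00517), and the JHU-029 difference was 0.01. IRS1, the sister of IRS2, fell in both lines, by 1.07 in FaDU (adjusted p = 7.09e-07, SE 0.07) and in JHU-029 by 0.36 (adjusted p = 0.0181, SE 0.07). The JHU-029 call was lost without any shControl replicate or shTP63 replicate 1 or 2 (-0.39 to -0.34 over the fits, adjusted p of up to 0.083). TRIM63, the other muscle ubiquitin ligase of wasting, differed by -0.07 in FaDU and 0.03 in JHU-029, neither past the threshold. Its group means of 5.00 to 5.29 lie below the array medians. FBXO25, a relative of FBXO32, did not pass in either line. It passed in FaDU without FaDU shControl replicate 3 (0.36, adjusted p = 0.00277).

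Of the arrestin-domain relatives of TXNIP, ARRDC3 rose in FaDU by 0.91 (SE 0.07, adjusted p = 2.52e-06). ARRDC4, which shares TXNIP's induction by glucose, rose there by 0.41 (SE 0.08, adjusted p = 0.00279). In JHU-029 their differences were 0.24 and 0.13, with no overlap of arrays, and did not pass. Of the yippee-like family, YPEL2 rose in FaDU by 0.85 (SE 0.08, adjusted p = 7.09e-06). A rise of 0.33 was found for YPEL5 (SE 0.07, adjusted p = 0.00305), and it did not pass without FaDU shControl replicates 1 and 2 together (0.29, adjusted p = 0.0768). In JHU-029 YPEL5 differed by -0.17 and YPEL2 by 0.16, neither past the threshold. YPEL1 rose in FaDU by 0.41 (SE 0.14, adjusted p = 0.0488), a call lost in 9 of the 12 fits without 1 array (0.26 to 0.54, adjusted p of up to 0.184), all but those without JHU-029 shControl replicate 1, JHU-029 shTP63 replicate 1 or FaDU shTP63 replicate 3.

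CCNI, a cyclin related to CCNG2, rose by 0.32 in FaDU (SE 0.06, adjusted p = 0.000895), and CCNG1 rose by 0.31 in JHU-029 (SE 0.06, adjusted p = 0.0211). The CCNG1 call was lost without any JHU-029 shControl replicate or shTP63 replicate 2 or 3 (0.29 to 0.32, adjusted p of up to 0.0996). Of the Krüppel-like factors, KLF7 fell by 1.11 and KLF11 by 0.60 in FaDU, and KLF5 fell by 0.29 and KLF13 by 0.25 in JHU-029. KLF10 and KLF16 also fell in FaDU (-0.53 to -0.40 and -0.49 to -0.31 in the fits without 1 array). KLF4 and KLF3 rose there (0.27 to 0.43 and 0.15 to 0.21 in those fits). The KLF3 call was lost in 5 of the 12 fits without 1 array (adjusted p of up to 0.124). It was also lost with array medians centred (adjusted p = 0.0753), in the fit of the FaDU arrays alone (0.0952) and with the replicate block (0.0587). The KLF5 and KLF13 calls were lost without any JHU-029 shControl replicate, among others (adjusted p of up to 0.0663 and 0.17). With a gene's probe sets averaged, KLF13 differed by -0.13 in JHU-029 and did not pass (adjusted p = 0.38). The CITED2 relatives CITED1 and CITED4 did not pass in either line.

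**Figure D3:**
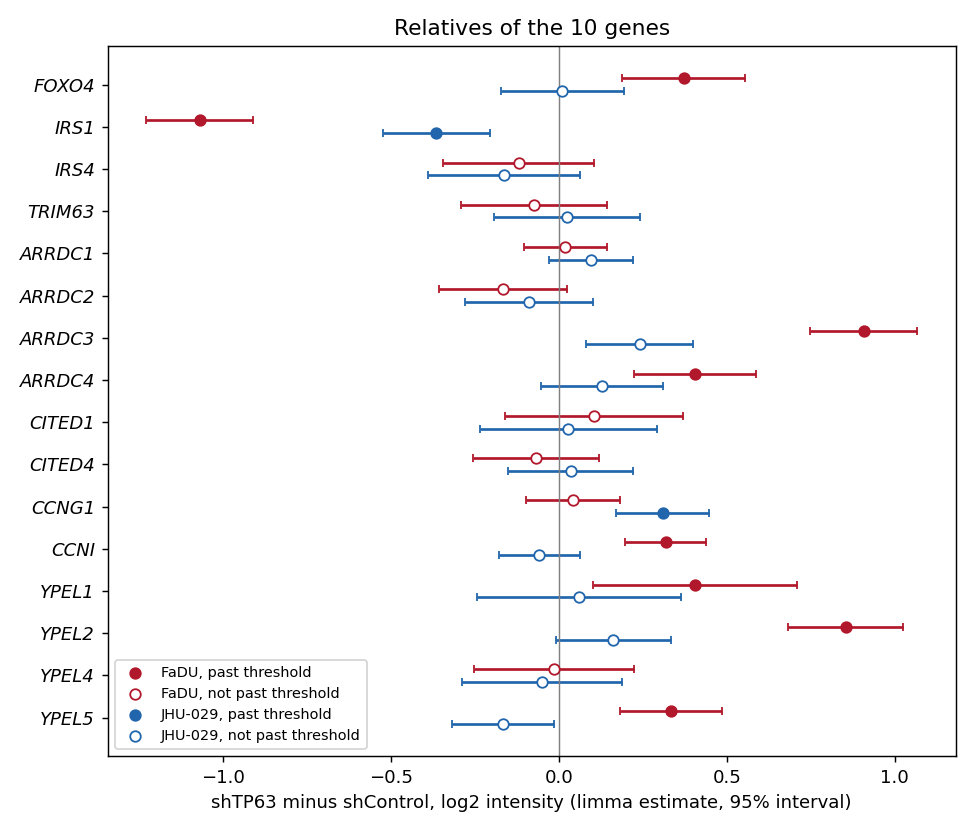
Difference between shTP63 and shControl arrays in log2 intensity (horizontal axis) for 16 relatives of the 10 genes from families other than the Krüppel-like factors. FBXO25, a relative of FBXO32, is not shown. Points are limma estimates with 95% intervals, in red for FaDU and in blue for JHU-029, filled where the adjusted p was under 0.05. IRS1 is the lowest in both lines (-1.07 and -0.36), and ARRDC3 and YPEL2 are the highest in FaDU (0.91 and 0.85).

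Upstream of the FOXO factors, 10 of 33 measured genes of the insulin receptor, PI3K and AKT pathway rose in FaDU and 9 fell, with a median difference of 0.02, equal to that of all genes. INSR, the insulin receptor and itself a known FOXO target, rose by 1.01 (SE 0.08, adjusted p = 2.02e-06), the PI3K regulatory subunit PIK3R3 by 0.68 (SE 0.07) and TSC1, a brake on mTOR, by 0.41 (SE 0.06). Beside IRS1, the adaptor GRB10 fell by 1.03 (SE 0.10) and the AKT inhibitor TRIB3 by 0.75 (SE 0.08). In JHU-029, 0 of the 33 rose and 1 fell, IRS1.

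Among 22 measured FOXO relatives and regulators, 4 rose and 9 fell in FaDU, and 0 rose and 2 fell in JHU-029. SKP2, the ubiquitin ligase subunit that targets FOXO1 and the inhibitor p27, fell by 1.25 in FaDU cells (adjusted p = 1.23e-08, SE 0.05), and in JHU-029 cells by 0.30 (adjusted p = 0.00447, SE 0.05). FOXM1, a forkhead factor of proliferation that opposes FOXO3, fell by 0.84 (SE 0.06) in FaDU and by 0.29 (SE 0.06) in JHU-029. The JHU-029 call of FOXM1 was lost without any shControl replicate or shTP63 replicate 1 or 2 (-0.32 to -0.26, adjusted p of up to 0.104). SGK1, a kinase that phosphorylates FOXO3, fell by 0.59 in FaDU (SE 0.07). The acetyltransferase EP300 rose by 0.41 (SE 0.06) and the kinase DYRK1A by 0.36 (SE 0.09) in FaDU.

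Of 46 other genes known as FOXO targets, some of them repressed by FOXO proteins, 15 rose and 7 fell in FaDU, and 4 rose and 1 fell in JHU-029. Their median difference was 0.12 in FaDU and 0.03 in JHU-029. The ferroxidase CP, the selenium carrier SELENOP and INSR had the largest rises of this list in FaDU, at 2.21 (SE 0.16), 1.89 (SE 0.15) and 1.01. The largest falls were those of the arrest genes GADD45A by 1.18 (SE 0.06, adjusted p = 7.33e-08) and CDKN1A by 0.69 (SE 0.08, adjusted p = 6.34e-05), and of the translation repressor EIF4EBP1 by 0.64 (SE 0.07). GADD45A and CDKN1A are induced by FOXO proteins and also by p53-family proteins.

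In JHU-029 the death ligand TNFSF10 rose by 0.51 (SE 0.08, adjusted p = 0.00425), the kinase PLK2 by 0.35 (SE 0.06, adjusted p = 0.00635) and the cell cycle inhibitor CDKN1B by 0.28 (SE 0.06, adjusted p = 0.0196). TNFSF10 and PLK2 also rose in FaDU, by 0.79 (SE 0.08) and 0.73 (SE 0.06). SESN3, a stress protein that restrains mTOR and a well-known FOXO target, rose by 0.78 in FaDU cells (adjusted p = 4.24e-05, SE 0.09) and fell in JHU-029 cells by 0.56 (adjusted p = 0.00507, SE 0.09). SESN3 thus moved in opposite directions in the 2 lines, as YPEL3 did. The JHU-029 call of SESN3 held in all 12 fits without 1 array (adjusted p of up to 0.0309), while that of YPEL3 did not.

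Of 40 measured genes of quiescence, cell cycle exit and the DREAM repressor complex, 11 rose and 9 fell in FaDU, and 4 rose and 1 fell in JHU-029. The list also holds drivers of cell cycle entry, namely CDK2, CDK4, CDK6, CCND1, CCND3, CCNE1 and CCNE2. CCNE2 is counted among the rises in both lines. CDKN1B, the p27 inhibitor of cyclin-dependent kinases, rose by 0.77 in FaDU cells (adjusted p = 1.13e-06, SE 0.06) and by 0.28 in JHU-029, where the call was lost without any shControl replicate or shTP63 replicate 2 or 3 (0.26 to 0.29, adjusted p of up to 0.0926). HBP1, a repressor of cell cycle genes, rose by 0.98 in FaDU (SE 0.09), and the G1 cyclin CCNE2 by 1.07 (SE 0.06). The E2F factors of repression E2F5 and E2F4 fell there by 1.05 (SE 0.10) and 0.78 (SE 0.05).

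In JHU-029 the MYC antagonist MXD1 rose by 0.32 (SE 0.06), CCNE2 rose by 0.26 (SE 0.06) and the RNA-decay factor ZFP36L2 fell by 0.47 (SE 0.07, adjusted p = 0.00321). The MXD1 call was lost without JHU-029 shControl or shTP63 replicates 2 or 3 (adjusted p of up to 0.0619), and the CCNE2 call without any JHU-029 array (adjusted p of up to 0.156) or FaDU shTP63 replicates 1 or 2.

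Of 29 measured proliferation markers, 1 rose and 7 fell in FaDU, with a median difference of -0.09. In JHU-029, 2 rose and 0 fell, with a median of 0.10. At an unadjusted limma p under 0.05, 14 of the 29 passed in JHU-029 and 10 in FaDU. In JHU-029, shTP63 arrays lay above the shControl arrays for 16 and below for 3 (13.3% and 11.7% of all genes). In FaDU this held for 3 and 14 (18.1% and 18%). The FaDU effect minus the JHU-029 effect was negative for 27 and positive for 2, beside 52.2% positive over all genes. MYBL2, an activator of G2 genes, fell by 1.47 in FaDU (SE 0.06, adjusted p = 2.11e-08), the helicase subunit MCM7 by 0.29 (SE 0.05) and the survivin gene BIRC5 by 0.29 (SE 0.07). The reductase subunit RRM2 rose by 0.28 in FaDU cells (SE 0.06) and in JHU-029 cells by 0.26 (SE 0.06), and the mitotic kinase AURKA rose by 0.21 in JHU-029 (SE 0.05). The AURKA call was lost without any 1 of the 6 JHU-029 arrays (adjusted p of up to 0.143). The RRM2 call in JHU-029 was lost without any of them but shControl replicate 2 (adjusted p of up to 0.154).

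A list of genes that respond to MondoA, glucocorticoids or p53 also holds the regulators MLX, MLXIP, MLXIPL and NR3C1. Of its 22 measured genes, 6 rose and 6 fell in FaDU and 0 passed in JHU-029 by limma. In JHU-029, 1 passed in the fit of the JHU-029 arrays alone and in the fit without FaDU shControl replicate 2. At an unadjusted p under 0.05, 5 of the 22 passed in JHU-029. TP53INP1 rose by 1.16 in FaDU (SE 0.17), ZMAT3 by 0.64 (SE 0.12) and GDF15 by 0.60 (SE 0.10), while the death receptor FAS fell by 0.51 (SE 0.07), beside CDKN1A and SGK1.

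**Figure D4:**
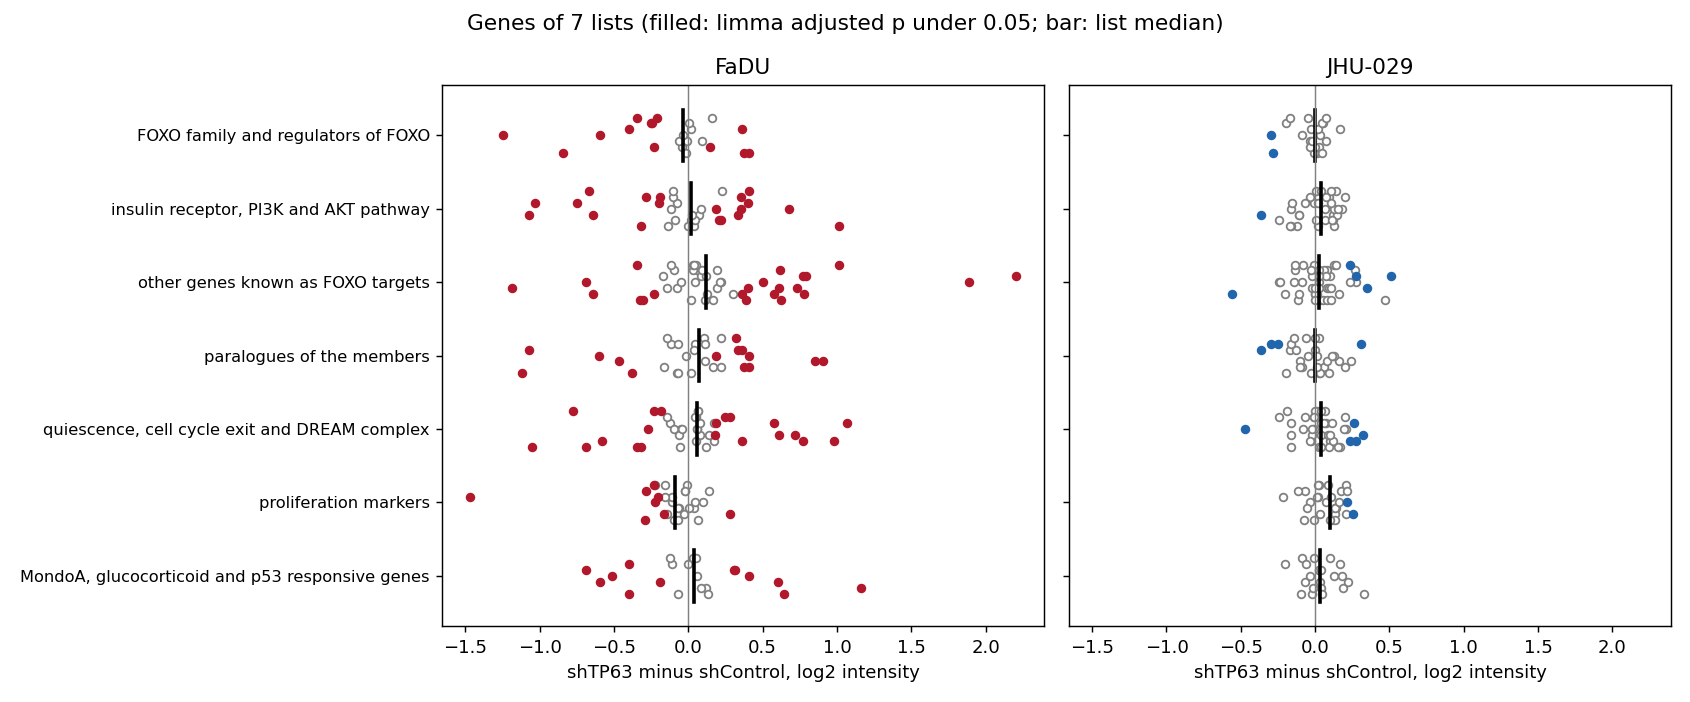
Difference between shTP63 and shControl arrays in log2 intensity (horizontal axes) for each measured gene of 7 gene lists, in FaDU (left) and JHU-029 (right). Filled points had an adjusted p under 0.05 and the black bar is the list median. Median differences of the FOXO target list are 0.12 and 0.03, and those of the proliferation markers -0.09 and 0.10.

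The genes with the most similar pattern were sought over the 12 arrays after each line's mean was subtracted, among all genes other than the 10. For FBXO32 they were NTN4 (Pearson r = 0.992), GPRC5A (0.989) and PPP2R1B (0.987). For TXNIP they were PALS1 (0.991), GNE (0.983) and STK38L (0.979). For FOXO1 they were ZCCHC2 (0.888), KCNC2 (0.885) and VWC2 (0.884), and for FOXO3 MAP1A (0.921), GLB1L2 (0.870) and TMPRSS13 (0.870). These values share the arrays and the knockdown contrast and were picked as the highest of all genes.

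Markers of the labelled cell type were present in both lines. The 8 measured squamous epithelial markers had group means from 8.62 in FaDU shTP63 to 13.25 in JHU-029 shControl, and 5 of them fell in FaDU, while EPCAM rose in JHU-029 by 0.25 (SE 0.05, adjusted p = 0.0177). In the fits without any JHU-029 shControl replicate, or shTP63 replicate 2 or 3, 0 squamous markers passed there. Of markers of other cell types, 0 of 7 fibroblast, 2 of 6 immune and 1 of 6 endothelial markers rose in FaDU (CD14 and LYZ, and CDH5), and 0 of these 19 passed in JHU-029 by limma (1, a fibroblast marker, at an unadjusted p under 0.05). In 5 of 25 alternative fits, among them the one without FaDU shControl replicate 3, 1 fibroblast marker passed in JHU-029. Of the 19, 7 had a group mean above the highest array median in at least 1 group, namely CD68, CD14, CDH5, CLDN5, COL1A1, COL1A2 and FAP. CD68 was at group means of 10.75 to 10.96, CLDN5 at 7.06 to 7.43 and COL1A1 at 7.66 to 8.09 over the 4 groups. CDH5 averaged 9.69 in FaDU shTP63 and 8.69 in FaDU shControl, and CD14 averaged 7.17 and 6.66 in those groups. FAP averaged 8.38 in JHU-029 shTP63 and 7.996 in JHU-029 shControl. The other 12 lay lower in every group, among them PTPRC, the common leukocyte antigen, at 3.37 to 3.55 and PECAM1, an endothelial adhesion molecule, at 4.15 to 4.49. The part of these markers in the results was not tested. Log2 values correlated at 0.993 to 0.997 between arrays of a group.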

How the data were processed

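Single arrays of 12 samples were analysed. The deposited values are linear intensity per probe set; per the submitters' processing notes, the authors made them by RMA with R 2.15.1. Whether 1 run covered all arrays, and by which package, is not stated in the sources used here. RMA aligns the arrays' distributions, so a shift shared by most genes would not show. No counts stand behind array values, and 3 arrays per group limit the precision.

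Values were taken to log2. Of 32321 probe sets, 19158 had 1 symbol, 1388 several and 11775 none listed. The probe set with the highest mean stood for each of 18404 genes. A model of 4 group means was fitted with limma 3.58.1 (R 4.3.3, 8 residual degrees of freedom), with Benjamini-Hochberg adjustment per contrast and a threshold of 0.05; the pipeline was tested on simulated data. No filter on dim genes was used. Alternatives were other scalings, probe set rules, variance models, replicate blocks and leaving out arrays.

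The 10 genes and the gene lists were chosen with earlier results of these data known. Named list genes were the up to 3 largest rises and falls per list and line that passed with arrays apart, and relatives of the 10 genes. Sequences are from RefSeq.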

Additional observations from a re-analysis of the deposited data

Results flagged for a closer look

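The knockdown effect differed between the lines, by the limma test of the FaDU effect minus the JHU-029 effect, for 37 of the 74 genes named or listed as relatives, beside 13.2% of all genes. Most of the named genes were chosen for large changes within a line, so the count is partly set by that choice. Of these differences, 35 kept their call in all 12 fits that left out 1 array, the exceptions being CITED2 and PIK3IP1.

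Of the 10 genes, the difference was 1.57 for YPEL3 (1.28 in FaDU, -0.29 in JHU-029), 0.50 for CCNG2, 0.44 for CITED2 and 0.42 for PIK3IP1. The CITED2 difference was lost without JHU-029 shControl replicate 3 (0.41, adjusted p = 0.0592) and that of PIK3IP1 in 8 fits (0.33 to 0.48 over all 12).

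Among relatives, the effect was more positive in FaDU for YPEL2 (0.69), ARRDC3 (0.67), YPEL5 (0.50), KLF5 (0.41) and CCNI (0.38). It was more negative for KLF7 (-0.92), IRS1 (-0.70) and KLF11 (-0.61).

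Among pathway genes and FOXO regulators, the difference was 0.89 for INSR, 0.50 for PIK3R3, 0.41 for EP300 and 0.37 for TSC1. It was -1.03 for GRB10, -0.95 for SKP2, -0.68 for TRIB3, -0.62 for SGK1 and -0.56 for FOXM1.

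Among other FOXO targets, it was 2.18 for CP, 1.65 for SELENOP, 1.34 for SESN3 (0.78 in FaDU, -0.56 in JHU-029) and 0.38 for PLK2. It was -1.27 for GADD45A and -0.54 for EIF4EBP1. CP and SELENOP were at group means of 3.90 to 4.47 in JHU-029, below the array medians.

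Among cell cycle and stress genes, it was 1.12 for TP53INP1, 0.86 for HBP1, 0.81 for CCNE2, 0.50 for CDKN1B and 0.40 for MXD1. It was -1.25 for MYBL2, -1.21 for E2F5, -0.72 for CDKN1A, -0.69 for FAS and -0.59 for E2F4.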

How the results depend on the processing

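The 5 calls in FaDU held in every alternative that was run, with 5 to 6 of the 10 genes called, IRS2 being the 1 gained. In JHU-029, 1 to 3 genes were called in fits without 1 array, FBXO32 in all of them. With the replicate number as a fixed replicate block, 5 genes were called in FaDU and 2 in JHU-029, where YPEL3 was lost (-0.29, adjusted p = 0.0555), as were KLF13, AURKA, CCNE2, FOXM1 and RRM2 of the list genes (adjusted p of 0.0519 to 0.0844). Same-numbered shTP63 and shControl arrays did not deviate together (r from -0.339 to 0.0134). Arrays of a line with different numbers had r from -0.133 to 0.294. Such correlations cannot tell whether same-numbered samples were handled together. In fits without 1 array, 2 to 5 differences between the lines and 8 to 9 differences between the control groups passed. The PIK3IP1 difference between the lines was also lost under quantile normalization (0.39), cyclic loess (0.39), centred array medians (0.41) and a random replicate block (0.42). Without the 2 FaDU control arrays that carry an extra title word (replicates 1 and 2), which leaves 1 array assumed to vary like the other groups, IRS2 passed in FaDU (0.41, adjusted p = 0.00461). There the PIK3IP1 and CITED2 differences between the lines were lost (0.46 and 0.36), as were those of CCNI, MXD1 and TSC1 (0.32, 0.31 and 0.32). In the same fit the FaDU calls of RRM2 (0.24), YPEL5 (0.29), YPEL1 (0.62) and KLF3 (0.16) were lost. The control-group call of FOXO3 was lost too (0.35), while FOXO1 passed between the control groups (-0.34), as it did with array medians centred (-0.23). Differences near 0 changed sign in fits without 1 array: KLF9 in FaDU (-0.018 to 0.18) and JHU-029 (-0.023 to 0.039), CCNG2 in JHU-029 (-0.050 to 0.0096) and FOXO1 in JHU-029 (-0.078 to 0.053). So did the differences between the lines of FOXO3 (-0.19 to 0.0041), KLF9 (-0.019 to 0.18) and FBXO32 (-0.022 to 0.10). KLF9 in JHU-029 was -0.0022 under quantile normalization. Over all genes, 580 passed in JHU-029, against 229 to 626 without 1 array, 377 with the replicate block, 879 with dim genes left out and 1015 with an intensity trend. The cause was not tested.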

Other observations

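The probe set listed for both FOXO3 and FOXO3B, whose sequences are nearly identical, was at 10.78, 10.74 and 10.68 in FaDU shTP63 arrays, against 10.70, 10.57 and 10.56 in FaDU shControl arrays. It was at 11.29, 11.35 and 11.32 in JHU-029 shTP63 arrays, against 11.26, 11.27 and 11.25 in JHU-029 shControl arrays. All 6 FaDU arrays lay below all 6 JHU-029 arrays. The probe set assigned to FOXO3 alone ran the other way under control shRNA, at 7.17 ± 0.16 in FaDU and 6.76 ± 0.16 in JHU-029 (SD, n = 3 each).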
